A study of Mus musculus with 16 samples.

Results

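Large peritoneal macrophages (LPM) live in the fluid of the peritoneal cavity, where they are the chief resident phagocyte. They were compared between mice lacking Bhlhe40 in every cell (Bhlhe40KO, Bhlhe40-/-, here KO) and mice with both copies intact (Bhlhe40WT, Bhlhe40+/+, here WT), all injected with IL-4c on days 0 and 2 and killed on day 4. The comparison was found by array title and rests on 4 of the 16 arrays of the series, 2 per genotype. All mice were male C57BL/6, LPM were sorted from peritoneal lavage, and biotin-labelled total RNA was hybridised to an Affymetrix mouse gene array. The labels state neither ages nor whether an array holds 1 mouse or a pool. The spread between arrays of a group, on which the p-values rest, may therefore be technical. All 16 arrays set the spread behind each p-value and decided which genes and probe sets were tested. Besides the 4 these are LPM of untreated (naive) mice, 3 WT and 3 KO, naive alveolar macrophages, 2 WT and 2 KO, which enter no comparison here, and 2 IL-4c LPM arrays labelled Bhlhe40LysM, the series' term for mice with LysM-Cre and both Bhlhe40 alleles flanked by loxP sites. LysM-Cre acts in macrophages, monocytes and neutrophils, so those mice keep Bhlhe40 in most other cells, whereas the KO loses it everywhere, lymphocytes included.

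IL-4c is the common name for IL-4 bound to an antibody that prolongs its action. IL-4 signals through its receptor and STAT6 to induce alternative activation, a programme of genes such as Arg1, Retnla and Chil3, and it drives resident macrophages of body cavities to divide in place. Bhlhe40 is a basic helix-loop-helix repressor that binds the E-box CACGTG and is known to restrain the factor c-Maf, which holds macrophages out of cycle. The question put by the comparison is what its loss changes in LPM that are exposed to IL-4c.

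Values are log2 signals, so a difference of 1 is a 2-fold change; differences are KO minus WT, given with the standard error (SE) of the fit. A gene is said to rise, fall or be called at a Benjamini-Hochberg adjusted p under 0.05 in limma over all 11634 genes tested. Bhlhe40 (chromosome 6, 108660629 to 108666925, GRCm38.p6) read 8.77 and 8.99 in WT and 8.01 and 7.90 in KO. It was lower on both KO arrays, without overlap (-0.93 ± 0.19, adjusted p = 0.013), and the adjusted p was 0.157 without WT replicate 2, 0.063 without KO replicate 1 and 0.061 without KO replicate 2. In naive LPM it read 8.64 to 8.75 in WT and 6.50 to 7.11 in KO (-1.89 ± 0.15, limma adjusted p = 6.38e-06). The difference under IL-4c minus that in naive LPM was 0.96 (limma adjusted p = 0.089). Why more signal was left in KO under IL-4c was not tested. The labels do not place its probes relative to the deleted exons, so the signal left in KO checks nothing. The LPM markers Gata6 (9.09 to 9.24), Icam2 (10.72 to 11.14) and Adgre1 (11.37 to 11.74) were far above the array medians of 4.79 to 4.93 on all 4 arrays. Defining markers of B cells (Ms4a1), eosinophils (Epx, Prg2), mast cells (Cpa3, Kit), mesothelium (Msln, Upk3b) and monocytes (Ccr2) lay below 4.93 on each of them. The T cell gene Cd3e read 5.18 and 4.55 in WT and 4.89 and 5.0 in KO, and the fibroblast genes Col1a1 and Col3a1 read 5.38 to 5.79 and 4.75 to 5.15 on these arrays. The neutrophil gene S100a8 read 6.98 and 5.90 in WT and 7.16 and 6.30 in KO, and the neutrophil gene Ly6g 2.68 and 3.46 in WT and 2.56 and 2.77 in KO. The 10 neutrophil markers summed to 202 to 288 in WT and 281 to 357 in KO on the linear scale, the 8 fibroblast markers to 162 to 181 and 196 to 259, and the 9 mast cell markers to 467 to 524 and 231 to 305. Too dim to be tested were 5 of the neutrophil, 4 of the fibroblast and 7 of the mast cell markers. Hdc alone made up most of each mast cell sum. Of these lists Csf3r rose and Hdc fell, and none of their other members was called. The part of such cells in the results was not tested, and in sorted bulk samples fewer cells of a type and less RNA per cell cannot be told apart.

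Across genes, 247 rose (2.12% of those tested) and 175 fell (1.5%) in KO. These shares are the base for the counts of calls on each list below. At least 2-fold were 97 of the rises and 51 of the falls. The median difference over all tested genes was -0.017, and 46.9% of genes lay above 0. For all 422 called genes the KO and WT arrays did not overlap, but so it was for many others: both KO arrays lay above both WT arrays for 20.3% of tested genes and below them for 24.8%. With the 4 compared arrays alone in the fit 117 genes were called in place of 422. Single arrays also moved the number of calls. Dropping WT replicate 2 left 84 and dropping KO replicate 1 left 135, while dropping WT replicate 1 or KO replicate 2 left 312 and 418, and 44 of the rises and 17 of the falls were called in each of these 4 fits. Across tested genes KO replicate 1 correlated with the 2 Bhlhe40LysM arrays at 0.979 and 0.985 and with KO replicate 2 at 0.98, and the 2 WT arrays correlated at 0.985; genes are not independent, so these are descriptions.

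The largest rises were led by genes with low WT signal. Plac8, a small cysteine-rich protein gene (chromosome 5, 100551589 to 100572253), read 4.66 and 3.14 in WT and 9.38 and 9.03 in KO. Both KO arrays stood far above the WT pair and above the naive arrays of either genotype, which read 4.97 to 5.95 (5.31 ± 0.56, adjusted p = 6.37e-05). Rcn3, which encodes a calcium-binding protein of the secretory pathway, read 5.15 and 4.85 in WT against 8.45 and 8.51 in KO, so the KO arrays lay close together and clear of WT. Its rise was 3.48 ± 0.27 (adjusted p = 5.95e-06). The scavenger receptor Stab1 (chromosome 14, 31139017 to 31168651) read 5.66 and 6.04 in WT and 9.38 and 9.18 in KO (3.43 ± 0.22, adjusted p = 7.14e-07), the lowest adjusted p among the genes named here. Tnxb, a matrix glycoprotein gene, rose by 2.71 from 4.53 and 4.15, and Anxa5, which binds phosphatidylserine on dying cells, by 2.36 from 7.69 and 6.86. Ptafr, the receptor for platelet-activating factor, read 7.10 on both WT arrays and 9.47 and 8.98 in KO, and Emp1, a membrane protein gene, rose by the same 2.12. The ubiquitin ligase genes Neurl3 and Rnf144b rose by 2.07 and 1.99.

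**Figure D1:**
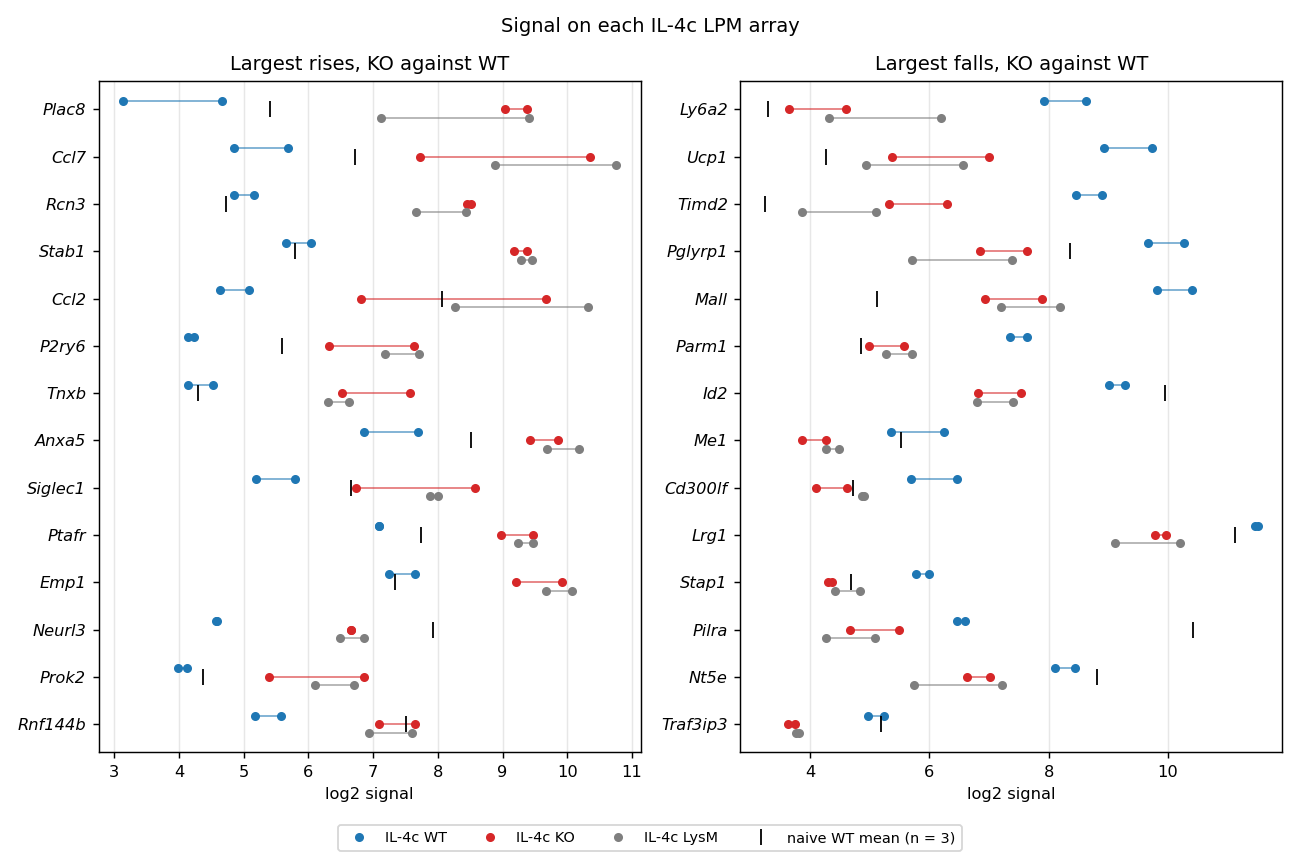
Log2 signal (x axis) of the 14 largest rises and 14 largest falls on each IL-4c LPM array, with WT in blue, KO in red, Bhlhe40LysM in grey and 2 arrays a group joined by a line; black ticks are naive WT means. KO and WT do not overlap for any of these genes, which were chosen for that; Ccl7 and Ccl2 show the widest KO pairs, at 10.36 and 7.72 and at 9.68 and 6.81.

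Among the falls, Ly6a2, a member of the Ly6 family of lipid-anchored surface proteins (chromosome 15, 75131292 to 75135128), read 7.93 and 8.64 in WT and 3.64 and 4.60 in KO. The KO arrays were near the naive level of 3.03 to 3.54, and the difference was -4.17 ± 0.44 (adjusted p = 6.37e-05). Probes of Ly6 genes can be shared by close relatives, so which of them changed is uncertain. Parm1, a mucin-like gene, read 7.36 and 7.63 in WT and 5.57 and 4.99 in KO (-2.21 ± 0.20, adjusted p = 1.89e-05). Mall, a gene of membrane trafficking, fell by 2.71 and Pglyrp1, which encodes a peptidoglycan-binding antibacterial protein, by 2.73. Lrg1, a secreted leucine-rich glycoprotein gene, stayed abundant but read 9.78 and 9.97 in KO against 11.47 and 11.51 in WT (-1.61 ± 0.27, adjusted p = 0.0037). Traf3ip3 and Stap1, both adaptors of lymphocyte and macrophage signalling, fell by 1.42 and 1.55, and the paired receptor Pilra by 1.45. Of the 28 largest changes, 21 were called without any one of the 4 arrays. Ccl7, Ccl2, Siglec1 and Pilra were not called without WT replicate 2 or KO replicate 1 (adjusted p of 0.065 to 0.165), Ucp1 and Stap1 not without WT replicate 2 (0.054 and 0.063), and Nt5e in none of the 4 fits (0.077 to 0.321). Of the smaller changes described from here on, Tlr1, C1qa, P2rx1, Cd93, Tgfbr2, Itga9, Bach1, Klf9, Ier3, Orc1, Pla2g7, Irs1 and Rassf2 were called without any one array. Cebpa, Pparg, Folr2, Csf3r, Rhob, Pltp, Thbd and Pros1 lost the call only without WT replicate 2 and Insig1 only without KO replicate 1. Most of the other called genes named below lost it in at least 2 of these fits. Like Nt5e, some were called in none of the 4. Among these were Foxm1, Mcm7, Adss, Cish, Il15, C1qc, Tlr8, Fasn, Gclm and Me2.

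Genes of the cell cycle lay below WT as a body. They are described in the order of the cycle, from the control of entry to division. Of 29 tested genes that control G1 and entry into S phase, 5 fell and 0 rose (median -0.341), beside 1.5% of all tested genes that fell. E2f2, an activator of S phase genes, read 6.83 and 7.19 in WT and 6.10 and 5.66 in KO (-1.13 ± 0.22, adjusted p = 0.0087). The repressors E2f7 and E2f8 fell by 0.86 and 1.07, cyclin E1 (Ccne1) by 0.88 and its partner kinase Cdk2 by 0.77. The D-type cyclins were not called. Ccnd1 differed by 0.30 (adjusted p = 0.62) and Ccnd2 by 1.21 (adjusted p = 0.086), both above WT, and Ccnd3 by -0.54 (adjusted p = 0.12).

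All 49 tested genes of DNA replication lay below 0, with a median of -0.646, and 8 of them fell. Gins1, a subunit of the replicative helicase complex, read 6.80 and 7.42 in WT and 6.07 and 6.09 in KO (-1.03 ± 0.21, adjusted p = 0.014). Orc1, the largest subunit of the origin recognition complex that marks replication origins, read 5.35 and 5.40 in WT and 4.33 and 4.43 in KO. Both pairs were tight and clear of each other (-1.0 ± 0.15, adjusted p = 0.0017), and Orc1 was the 1 gene of the list called in all 4 fits that left out an array. Cdc6, which loads the helicase, fell by 0.88, the helicase subunit Mcm7 by 0.75, the leading-strand polymerase gene Pole by 0.90 and the ligase Lig1 by 0.84. Uhrf1, which recruits the maintenance methyltransferase to new DNA, and Timeless, of the fork protection complex, fell by 0.96 and 0.61. The clamp gene Pcna, at -0.35 (adjusted p = 0.20), was among the 41 not called. Genes that make nucleotides gave 3 falls among 26 tested (median -0.344): Rrm2, the regulated subunit of ribonucleotide reductase, fell by 1.37, the mitochondrial serine enzyme Shmt2 by 0.94 and Adss, of adenine nucleotide synthesis, by 0.60.

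Genes of DNA repair by recombination gave 5 falls among 24 tested, with a median of -0.554. Bard1, the partner of BRCA1, read 6.75 and 7.49 in WT and 5.46 and 6.12 in KO (-1.33 ± 0.26, adjusted p = 0.011). Rad54b fell by 1.01, Fancd2 by 0.96, the helicase gene Blm by 0.86 and Rad51c by 0.77. Of 66 tested genes of mitosis 65 lay below 0 (median -0.662) and 7 fell. Foxm1, which activates the genes of G2 and mitosis, read 7.48 and 7.96 in WT and 6.89 and 6.55 in KO (-1.0 ± 0.26, adjusted p = 0.048). Aurka, a kinase of the spindle poles, fell by 0.95, Cdca5, which protects sister chromatid cohesion, by 0.96, the condensin subunit Ncaph by 0.93 and the kinesins Kif2c and Kif4 by 0.90 and 0.88. Mki67, the usual marker of dividing cells, read 8.43 and 8.71 in WT and 7.88 and 8.23 in KO and was not called (-0.51 ± 0.30, adjusted p = 0.42).

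**Figure D2:**
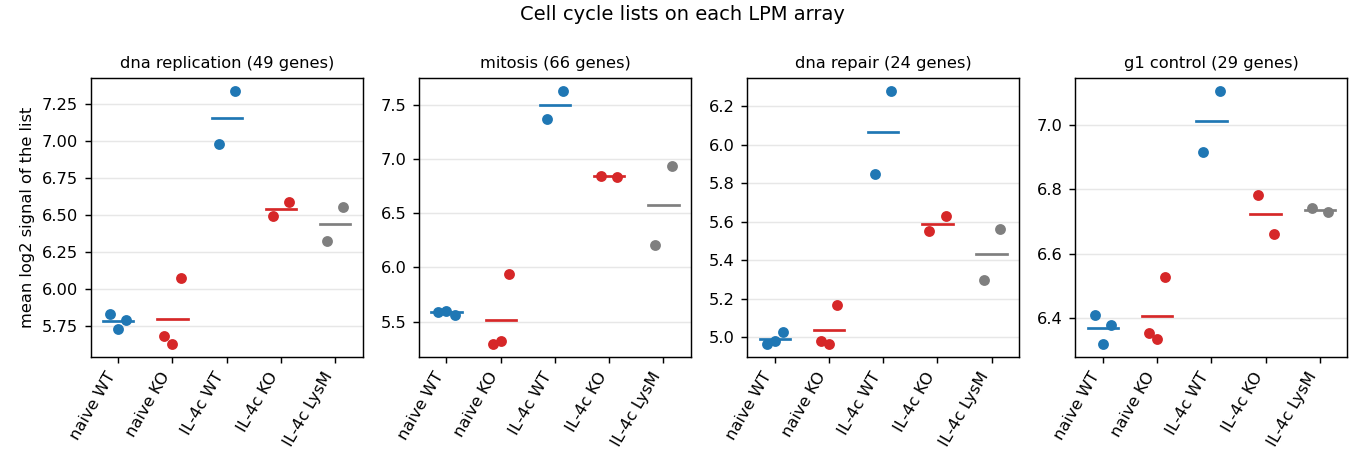
Mean log2 signal of the tested genes of 4 cell cycle lists (y axis) on each LPM array by group (x axis); points are arrays and bars group means. In each list both IL-4c KO arrays lie below both IL-4c WT arrays and above the naive WT arrays, and naive KO replicate 3 is the highest naive array.

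Averaged over a list, the arrays separated by genotype under IL-4c. The DNA replication list averaged 6.98 and 7.34 on the WT arrays and 6.49 and 6.59 on the KO arrays, against 5.73 to 5.84 on the naive WT arrays and 5.63 to 6.08 on the naive KO arrays. The mitosis list averaged 7.38 and 7.63 on the WT arrays, 6.85 and 6.84 on the KO arrays, 5.56 to 5.60 in naive WT and 5.29 to 5.94 in naive KO. So KO under IL-4c lay between naive and WT under IL-4c on both lists, and WT replicate 2 was the highest array on both. In naive LPM the medians of KO against WT were 0.029 for replication and -0.08 for mitosis, and 0 genes of either list were called. Counts of falls moved with single arrays while the medians stayed below 0. The replication list gave 1 fall without WT replicate 2 and 1 without KO replicate 1, against 13 without WT replicate 1, with medians from -0.849 to -0.428. The mitosis list gave 0 falls without WT replicate 2, KO replicate 1 or KO replicate 2 (limma), where its medians were -0.567, -0.658 and -0.666. The repair list gave 0 without WT replicate 2 or KO replicate 1 and 10 without WT replicate 1, the nucleotide list 0 and the G1 list 0 without WT replicate 2.

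Promoters of cell cycle genes are known for 2 kinds of site, and those of 3 genes that fell are shown with the site in capitals. E2F factors act in G1 and S phase, here searched as TTTCGCGC or TTTGGCGC on both strands. The cell cycle homology region, TTTGAA on both strands, is the element read by the DREAM and FOXM1 complexes at genes of G2 and mitosis. Each line gives the 250 bases before a RefSeq transcript start (GRCm38.p6), 5′ to 3′ on the strand of the gene.
Orc1, chr4:108579204-108579453, plus strand: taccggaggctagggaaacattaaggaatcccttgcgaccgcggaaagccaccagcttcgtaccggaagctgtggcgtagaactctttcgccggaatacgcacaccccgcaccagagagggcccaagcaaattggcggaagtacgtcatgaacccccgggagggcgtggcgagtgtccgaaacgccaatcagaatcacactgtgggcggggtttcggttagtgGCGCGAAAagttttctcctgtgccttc
Uhrf1, chr17:56304063-56304312, plus strand: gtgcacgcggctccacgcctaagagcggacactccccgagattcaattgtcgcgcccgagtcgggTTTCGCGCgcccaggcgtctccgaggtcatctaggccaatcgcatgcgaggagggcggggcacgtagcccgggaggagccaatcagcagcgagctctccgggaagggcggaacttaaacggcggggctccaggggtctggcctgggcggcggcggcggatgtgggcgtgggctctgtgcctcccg
Cdca5, chr19:6084847-6085096, plus strand: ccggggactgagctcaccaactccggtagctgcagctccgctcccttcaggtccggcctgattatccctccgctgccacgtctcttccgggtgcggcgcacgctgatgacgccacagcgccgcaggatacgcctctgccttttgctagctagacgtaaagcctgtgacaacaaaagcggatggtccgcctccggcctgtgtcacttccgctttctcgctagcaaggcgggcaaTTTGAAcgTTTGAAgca
The match in Orc1 starts 27 bases before the start site and that in Uhrf1 185, and Cdca5 has 2 matches, at 17 and 9. Over the window from 250 bases before to 50 after the start, the E2F site was in 14 of 40 replication genes with a promoter in the table (35.0%) against 1.87% of all tested genes. It was in 14.3% of repair, 13.6% of G1, 7.27% of mitosis and 0 of 24 nucleotide genes, and in 5.19% of genes that fell. The cell cycle homology region was in 41 of 55 mitosis genes (74.5%) against 14.1% of tested genes, and in 26.7% of the genes that fell. It was in 31.8% of G1, 17.5% of replication, 9.52% of repair and 8.33% of nucleotide genes. These list shares cover members with a promoter, whether called or not. These 2 motifs were chosen after the values were seen, and a match is a description of the sequence.

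Several of the genes most used to define alternative activation were high in both genotypes, and their arrays overlapped or lay close together. Mrc1, another such gene, was higher on both KO arrays without overlap and was not called. Its values are given below with the scavenger receptors. Arg1, the arginase that IL-4 induces, read 12.25 and 12.30 in WT and 12.36 and 12.24 in KO, so the arrays overlapped. The difference was 0.03 with a 95% interval of -0.376 to 0.432. Retnla, a secreted resistin-like protein gene, read 12.09 and 11.81 in WT and 11.98 and 12.05 in KO (interval -0.435 to 0.565). The chitinase-like gene Chil3 read 12.49 and 12.39 against 12.55 and 12.44, with a wider interval of -0.899 to 1.0. The lectin Mgl2 and the ribonuclease Rnase2a differed by 0.08 and 0.13 (intervals -0.492 to 0.655 and -0.288 to 0.541). Signals this high can be compressed on an array, and Chil3, Chil4 and Rnase2a have close relatives whose RNA their probes may share.

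**Figure D3:**
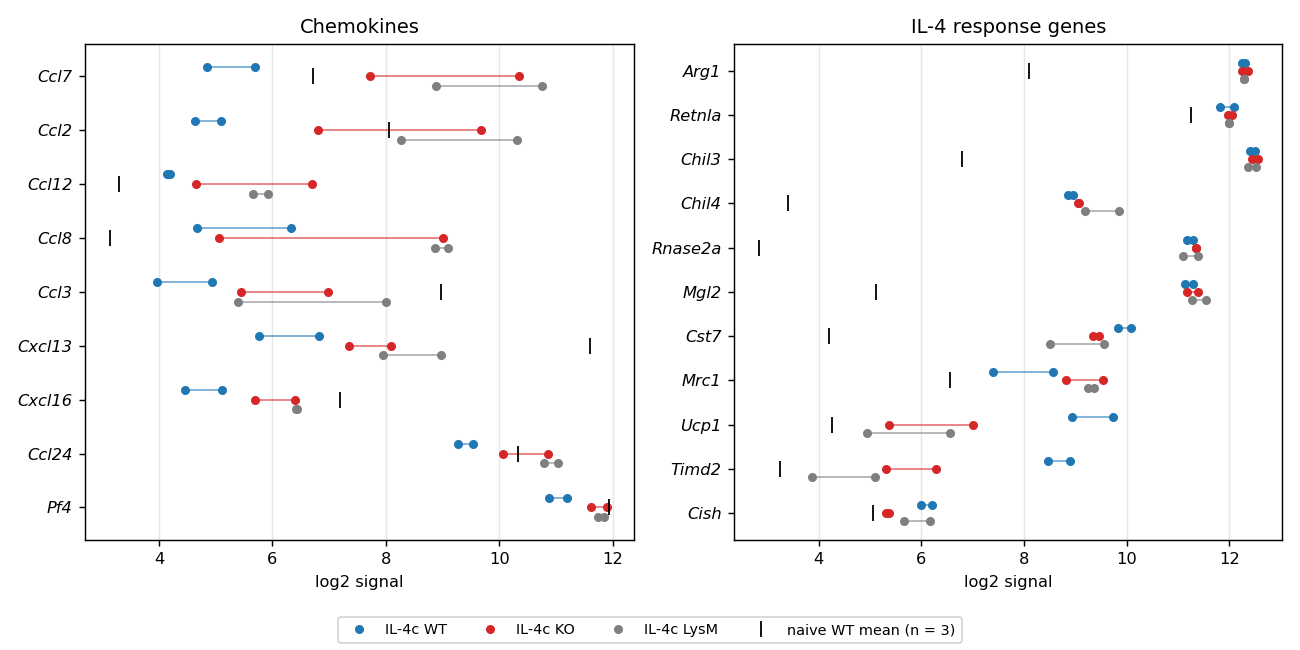
Log2 signal (x axis) of 9 chemokines (left) and 11 IL-4 response genes (right) on each IL-4c LPM array, with WT in blue, KO in red and Bhlhe40LysM in grey; black ticks are naive WT means. Arg1, Retnla and Chil3 overlap between genotypes at 11.81 to 12.55, whereas Ucp1 and Timd2 read lower in KO and in the arrays labelled Bhlhe40LysM than in WT.

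Other members of the IL-4 programme differed. Of 37 tested, 4 fell and 2 rose (median 0.077), beside 1.5% and 2.12% of all tested genes. Ucp1, the uncoupling protein of thermogenic fat, which IL-4c also induces in LPM, read 8.93 and 9.74 in WT and 5.37 and 7.0 in KO, against 3.80 to 4.62 in naive WT (-3.15 ± 0.50, adjusted p = 0.0023). Timd2, a receptor that takes up H-ferritin, read 8.46 and 8.90 in WT and 5.32 and 6.29 in KO, against 3.05 to 3.38 in naive WT (-2.87 ± 0.33, adjusted p = 0.00011). Both KO arrays lay between naive and IL-4c WT for each of these genes. Cish, a feedback inhibitor of STAT signalling, fell by 0.76, and the lipoxygenase Alox15 by 0.73 from 11.79 and 11.86. Pparg, a lipid-sensing receptor of alternatively activated macrophages, rose by 1.04 and the eosinophil-attracting chemokine Ccl24 by 1.05. Genes of the pathway itself were not called: the receptor chain Il4ra differed by 0.29 (adjusted p = 0.50) and Stat6 by 0.30 (adjusted p = 0.27). Without WT replicate 2 the list gave 0 rises and 1 fall (limma), that of Timd2, and without KO replicate 1 it gave 1 rise and 2 falls.

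Of 4 chemokine genes grouped here as ligands of CCR2, a receptor of monocytes, 2 rose in KO, to unequal extents on its 2 arrays. Ccl7 (chromosome 11, 82045712 to 82047525) read 5.69 and 4.85 in WT and 10.36 and 7.72 in KO (3.77 ± 0.72, adjusted p = 0.0084). Its neighbour Ccl2 (chromosome 11, 82035577 to 82037452) read 5.09 and 4.64 in WT and 9.68 and 6.81 in KO (3.38 ± 0.71, adjusted p = 0.015). For both genes KO replicate 1 was the higher and naive WT arrays, at 6.17 to 7.13 and 7.84 to 8.31, lay above the IL-4c WT arrays. The 2 other genes of this group were not called: Ccl12 differed by 1.51 (adjusted p = 0.0505) and Ccl8, at 6.33 and 4.66 in WT and 9.0 and 5.06 in KO, by 1.54 (adjusted p = 0.34). Without KO replicate 1 the differences were 2.45 for Ccl7 and 1.95 for Ccl2, and without KO replicate 2 they were 5.09 and 4.82. The list of 4 gave 0 rises without KO replicate 1 or WT replicate 2 and 4 without KO replicate 2 (limma). The summed monocyte and dendritic cell markers were 3944 to 4828 in WT and 4453 to 4572 in KO, and Ccr2 itself read 4.71 and 4.06 in WT and 4.21 and 3.86 in KO.

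Of 17 other chemokine genes tested, 4 rose and 0 fell (median 0.411), beside 2.12% of all tested genes that rose. Cxcl13, the B cell chemokine that resident peritoneal macrophages make, read 6.81 and 5.76 in WT and 8.09 and 7.34 in KO (1.43 ± 0.36, adjusted p = 0.038), far below its naive level of 11.51 to 11.70. Cxcl16 rose by 1.25 and Pf4, the platelet factor also made by macrophages, by 0.71. Ccl3 was higher on both KO arrays, at 6.98 and 5.44 against 4.94 and 3.96, and was not called (1.76, adjusted p = 0.14). Cytokines themselves moved singly. Osm, which encodes oncostatin M, rose by 1.43 and Il15 by 0.80, while Il6 fell by 1.05 from 7.35 and 7.42. Of their 22 receptor genes tested 4 rose and 1 fell, beside 2.12% and 1.5% of all tested genes. Il6st, the shared chain that carries the oncostatin M and IL-6 signal, rose by 1.07, Tgfbr2 by 1.27, Il21r by 1.37 and Csf3r by 1.07, and Csf2rb, the shared chain for GM-CSF, fell by 0.77. Leaving out WT replicate 2 or KO replicate 1 gave 0 rises on the list of other chemokines (limma), with 2 falls in the fit without KO replicate 1, and 1 and 2 rises on the receptor list.

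Of 22 scavenger receptor genes tested 5 rose and Timd2 fell (median 0.32), beside 2.12% and 1.5% of all tested genes. Beside Stab1 these were Folr2, a folate receptor of resident macrophages (6.75 and 6.04 in WT, 8.56 and 7.93 in KO; 1.85 ± 0.30, adjusted p = 0.0024), and Cd163, which takes up haemoglobin bound to haptoglobin (4.35 and 4.67 in WT, 6.34 and 5.42 in KO). Cd93 rose by 1.19 and the ficolin Fcna by 1.07. The mannose receptor Mrc1, at 8.56 and 7.39 in WT and 9.54 and 8.81 in KO, was not called (1.20, adjusted p = 0.092). Siglec1, a lectin of resident macrophages, read 5.79 and 5.20 in WT and 8.57 and 6.73 in KO (2.16 ± 0.42, adjusted p = 0.0091). It was the 1 rise among 20 tested lectin receptor genes, of which Clec4b1 fell by 0.94 and 10 lay above and 10 below 0 (median 0.024). All 13 tested genes of Toll-like receptors and their partners lay above 0 (median 0.477) and 3 rose. Tlr1, which pairs with TLR2 to sense bacterial lipopeptides, read 6.30 and 6.13 in WT and 7.77 and 7.79 in KO (1.56 ± 0.21, adjusted p = 0.00054), and Tlr2 and Tlr8 rose by 0.80 each. Without any one array 1 or 2 of the 13 were called, and the medians were 0.351 to 0.657.

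Among complement genes, C1qa, a chain of the molecule that starts the classical pathway, read 10.64 and 10.67 in WT and 11.72 and 11.54 in KO (0.98 ± 0.16, adjusted p = 0.0026), C1qc rose by 0.54 and C1qb differed by 0.49 (adjusted p = 0.094). The anaphylatoxin receptor C5ar1 rose by 0.88. Receptors for extracellular nucleotides included P2ry6, which senses UDP from damaged cells (4.14 and 4.23 in WT, 7.63 and 6.31 in KO; 2.78 ± 0.32, adjusted p = 0.00011), and the ATP-gated channel P2rx1 (7.05 and 6.91 in WT, 9.11 and 8.74 in KO; 1.95 ± 0.19, adjusted p = 3.01e-05). In contrast Nt5e, the surface enzyme CD73 that makes adenosine from AMP, fell by 1.45. Of 21 interferon-stimulated genes 20 lay above 0 (median 0.522). Irf7, the factor that amplifies type I interferon, rose by 1.47 and Parp14 by 0.75, and the list gave 0 rises without WT replicate 2 or KO replicate 1 (limma), with a median of 0.191 without the latter. The 8 tested genes of MHC class II presentation gave 0 calls in limma and had a median of 0.025, with Cd74 at 0.22 (interval -0.187 to 0.635).

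**Figure D4:**
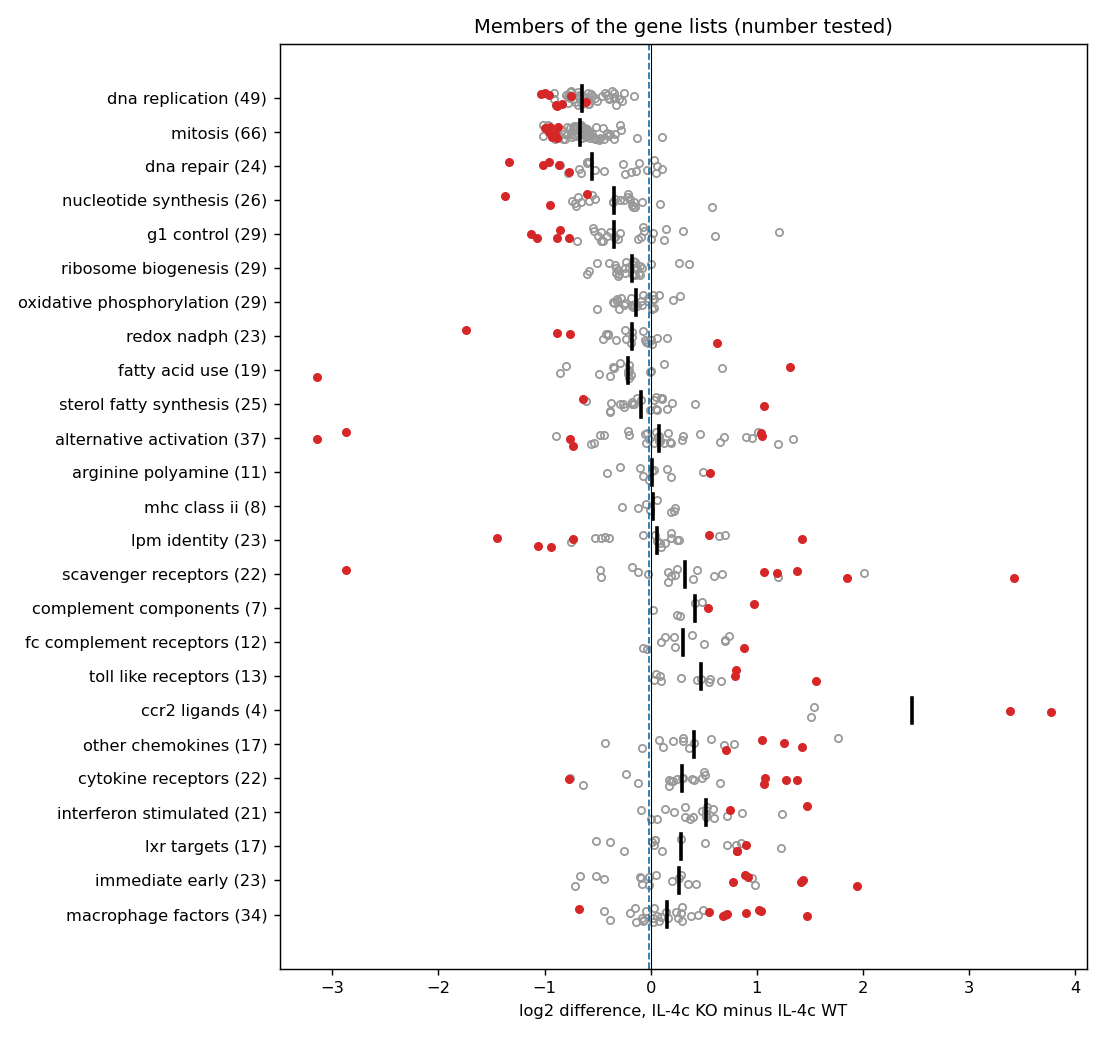
Log2 difference of KO minus WT under IL-4c (x axis) for each tested member of 25 lists, with the number tested in brackets; red points are called, open points are not, black bars are list medians and the dashed line is the median of all genes at -0.017. The DNA replication and mitosis points lie left of 0 apart from Pttg1 at 0.11, and the Toll-like receptor and CCR2 ligand points right of it.

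Transcription factors showed both directions. Id2, which blocks E proteins by pairing with them, read 9.28 and 9.01 in WT and 6.82 and 7.54 in KO (-1.96 ± 0.27, adjusted p = 0.00054), and was called without any one array. Maf (c-Maf), a factor that restrains macrophage division, read 6.86 and 6.41 in WT and 7.58 and 7.14 in KO (0.73 ± 0.19, adjusted p = 0.046). It was not called without WT replicate 2 or KO replicate 1, with adjusted p of 0.424 and 0.347. Bach1, a haem-sensing repressor that pairs with small Maf proteins, rose by 1.04 ± 0.14 (adjusted p = 0.00046). Bhlhe41, the close relative of Bhlhe40, read 3.44 and 3.51 in WT and 5.41 and 4.04 in KO, above WT on both arrays and not called (1.25, adjusted p = 0.086). Myc (-0.13), Klf2 (0.18), Klf4 (-0.05) and Gata6 (-0.07), factors of self-renewal, quiescence, alternative activation and LPM identity, had adjusted p of 0.628 to 0.942.

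Of 34 tested factors of macrophage differentiation and signalling 8 rose and Runx3 fell, beside 2.12% and 1.5% of all tested genes. The risers included the myeloid factors Cebpa (7.46 and 7.13 in WT, 8.34 and 8.30 in KO; 1.02 ± 0.17, adjusted p = 0.0041) and Irf8 (0.72), the lysosomal regulator Mitf (0.70) and the sterol sensor Nr1h3 (0.90). Without WT replicate 2 0 of the 34 were called in limma, and 2 rose without KO replicate 1. Of 23 immediate early genes, which respond to signals within minutes, 6 rose and 0 fell (median 0.271), beside 2.12% and 1.5% of all. Ier3 (8.62 and 8.49 in WT, 10.20 and 9.74 in KO; 1.42 ± 0.15, adjusted p = 7.1e-05), the MAP kinase phosphatase Dusp6 (1.94), Rhob (1.43), Jun (0.91), Dusp1 (0.89) and Zfp36 (0.77) rose. Egr1 at -0.67 and Nr4a1 at -0.71 were not called, and the list gave 1 rise without WT replicate 2 and 2 without KO replicate 1. Klf9, a target of glucocorticoids, rose by 1.06. The clock repressor Nr1d1 rose by 1.94, but its KO arrays read 7.13 and 9.26; without KO replicate 2 the difference was 0.88 (adjusted p = 0.26). The other 13 tested clock genes were not called, and the labels do not state the hour of death.

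Few genes of each metabolic list were called, but several lists leaned to 1 side of 0. Below 0 lay 26 of 29 genes of ribosome biogenesis, 21 of 29 of oxidative phosphorylation, 17 of 23 of redox balance and 16 of 19 of fatty acid use. Above 0 lay 14 of 17 genes of the LXR list described below, against 46.9% of all tested genes. Without KO replicate 1 this was 10 of 17, and the LXR median was 0.106 in place of 0.283. Without any one array the lists below 0 kept 23 to 27, 19 to 21, 16 to 19 and 15 to 16 genes there, in the order given. Me1, the cytosolic malic enzyme that makes NADPH, read 5.35 and 6.25 in WT and 4.26 and 3.85 in KO (-1.74 ± 0.26, adjusted p = 0.0015). Taldo1, of the pentose phosphate pathway, and Gclm, of glutathione synthesis, fell by 0.88 and 0.76, while the mitochondrial malic enzyme Me2 rose by 0.62. Insig1, which holds back sterol synthesis, read 7.96 and 8.01 in WT and 9.18 and 8.93 in KO (1.07 ± 0.18, adjusted p = 0.0038), and fatty acid synthase (Fasn) fell by 0.64. Of 17 genes of the sterol-sensing LXR programme 3 rose, beside 2.12% of all tested genes. These were its receptor gene Nr1h3, and Pltp (0.81) and Apoe (0.81), whose products carry lipid. Abca1, the cholesterol exporter, differed by 1.23 (adjusted p = 0.054). The heart-type fatty acid carrier Fabp3 rose by 1.31. Of 29 oxidative phosphorylation genes 0 were called in limma (median -0.142), and 0 of 29 of ribosome biogenesis (median -0.178).

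Genes that mark LPM themselves gave 4 falls and 2 rises among 23 tested (median 0.064), beside 1.5% and 2.12% of all tested genes. The integrin Itga6 fell by 1.06 from 8.80 and 9.12, coagulation factor V (F5) by 0.94, and Nt5e and Alox15 as above. The retinoid receptor Rarb rose by 0.55 and Cxcl13 as above. Without WT replicate 2 or KO replicate 1 the list gave 0 calls (limma). Other genes of clotting moved the other way: factor VII (F7) rose by 1.05, thrombomodulin (Thbd) by 1.12 and protein S (Pros1) by 0.73. Among adhesion molecules Itga9 (5.64 and 5.45 in WT, 7.74 and 6.63 in KO) rose by 1.64 and Icam1 by 0.77, while Itgb3 fell by 1.18 and Pecam1 by 0.77. Pla2g7, which breaks down platelet-activating factor, read 9.09 and 9.01 in WT and 7.78 on both KO arrays (-1.27 ± 0.17, adjusted p = 0.00068). In KO the enzyme was thus lower and its lipid's receptor, Ptafr, higher. The 2 did not go together in Bhlhe40LysM, described below, where Ptafr was higher and Pla2g7 near WT. Hdc, the histamine-forming enzyme, read 8.54 and 8.76 in WT and 7.71 and 7.08 in KO (-1.25 ± 0.25, adjusted p = 0.013); the mast cell genes Cpa3 and Kit read 3.37 to 4.15 on these 4 arrays.

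The KO and WT arrays of naive LPM share no array with those above and were fitted in the same way. In naive LPM 219 genes were called (1.88%), of which 62 rose (0.533%) and 157 fell (1.35%). Of the 247 genes that rose under IL-4c 32 also rose in naive KO, 13% of the IL-4c list and 51.6% of the naive list. Of the 175 that fell 14 also fell in naive KO, 8.0% and 8.92% of the lists. Csf3r changed in opposite directions: it read 9.20 to 9.44 in naive WT and 8.42 to 8.58 in naive KO, but 5.88 and 5.32 in IL-4c WT and 6.67 on both IL-4c KO arrays. Stab1 rose by 3.31 in naive and 3.43 in IL-4c LPM, Tlr1 by 1.79 and 1.56, Folr2 by 1.73 and 1.85, and the oxysterol receptor Gpr183 by 1.36 and 1.29. Pglyrp1 fell by 2.58 and 2.73, Pla2g7 by 1.15 and 1.27, and Id2 by 1.35 and 1.96. The median naive difference was 0.127 for the genes that rose under IL-4c, whose own median was 0.899, and -0.148 for those that fell, whose own was -0.868. The genes were chosen on the IL-4c arrays, which enlarges the IL-4c values.

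**Figure D5:**
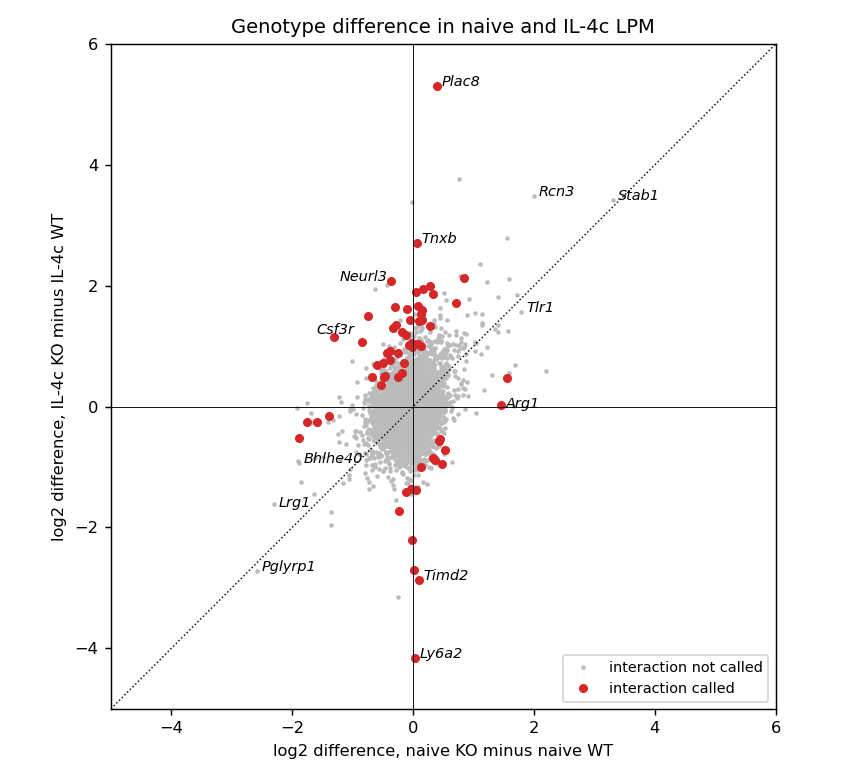
KO minus WT log2 difference in naive LPM (x axis, 3 against 3 arrays) and IL-4c LPM (y axis, 2 against 2 arrays) for each tested gene, with the 64 genes whose interaction was called in red and a dotted line of equality. Stab1, Tlr1 and Pglyrp1 lie near the line, and Plac8, Tnxb, Timd2 and Ly6a2 lie near 0 on the naive axis.

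The interaction, the genotype difference under IL-4c minus that in naive LPM, was called for 64 genes (0.55%), 47 above 0 (0.404%) and 17 below (0.146%). Plac8 differed by 0.39 in naive and 5.31 in IL-4c LPM (interaction 4.92, adjusted p = 0.0041). Neurl3 read 7.91 to 7.94 in naive WT and 7.38 to 7.74 in naive KO, and 4.59 and 4.57 in IL-4c WT against 6.65 and 6.66 in IL-4c KO. So it was lower under IL-4c in both genotypes and less so in KO (interaction 2.45, adjusted p = 0.00022). Rassf2, a RAS-binding tumour suppressor, showed the same order: 6.71 to 7.41 in naive WT, 6.98 to 7.20 in naive KO, 4.63 and 4.37 in IL-4c WT and 6.35 and 6.45 in IL-4c KO (interaction 1.85, adjusted p = 0.0026). Hgf, the hepatocyte growth factor gene, read 6.04 to 6.46 in naive WT, 5.36 to 5.61 in naive KO, 3.45 and 3.16 in IL-4c WT and 5.06 and 4.55 in IL-4c KO. Negative interactions included genes that read higher under IL-4c than naive in WT. Ly6a2, Timd2, Mall and Parm1 had interactions of -4.20, -2.97, -2.72 and -2.19, and Irs1, the insulin receptor substrate, read 5.04 and 5.58 in IL-4c WT and 4.08 and 3.78 in IL-4c KO against 3.42 to 3.72 on the naive arrays.

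Some interactions came from the naive side. Arg1 read 7.91 to 8.36 in naive WT and 9.26 to 9.81 in naive KO and overlapped between genotypes under IL-4c (interaction -1.43, adjusted p = 0.013). Cell cycle genes with a called interaction on the lists were Orc1 (-1.13), Ccne1 (-1.24) and E2f7 (-1.20), and that of Ercc6l, a helicase of mitotic chromosomes, was -1.42. The number of interaction calls was 20 without IL-4c WT replicate 2, 33 without IL-4c KO replicate 1, 37 without naive WT replicate 2 and 124 without IL-4c KO replicate 2. No label gives a processing batch. Should the naive arrays have been run separately from the IL-4c arrays, batch and treatment cannot be told apart in the levels, while the interaction compares differences taken within each set.

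The 2 arrays labelled Bhlhe40LysM were set beside KO under the same treatment. Against the same WT arrays 1009 genes were called in Bhlhe40LysM (8.67%; 4.8% higher and 3.87% lower), and because both comparisons share these WT arrays only the direct test of KO against Bhlhe40LysM bears on whether they differ. That test called 2 genes (0.0172%), both lower in KO, and 1024 had an unadjusted p under 0.05. Pla2g7 read 7.78 on both KO arrays and 9.24 and 8.77 in Bhlhe40LysM, near WT at 9.09 and 9.01 (KO minus Bhlhe40LysM -1.22 ± 0.17, adjusted p = 0.020). This call was lost without KO replicate 2 (-1.22, adjusted p = 0.118) and without Bhlhe40LysM replicate 1 (-0.98, adjusted p = 0.143). The other was G530011O06Rik, which the rule on predicted names would leave out and which is named after its values were seen: it read 4.35 and 4.15 in KO, 6.05 and 6.02 in Bhlhe40LysM and 3.44 and 3.36 in WT. Bhlhe40 itself read 8.75 and 8.83 in Bhlhe40LysM near the 8.77 and 8.99 of WT, so its signal gives no check of those labels, and it differed from KO by -0.83 (adjusted p = 0.18). Hdc read 8.93 and 8.22 in Bhlhe40LysM and 7.71 and 7.08 in KO (-1.18, adjusted p = 0.16).

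Side by side, differences from WT in KO and in Bhlhe40LysM were 5.31 and 4.36 for Plac8, 3.43 and 3.52 for Stab1, 3.77 and 4.55 for Ccl7, 2.12 and 2.26 for Ptafr, -4.17 and -3.03 for Ly6a2, -2.87 and -4.19 for Timd2, -1.96 and -2.05 for Id2 and -1.27 and -0.05 for Pla2g7. The median differences were -0.646 and -0.691 for DNA replication and -0.662 and -1.0 for mitosis. Mki67 read 6.95 and 7.78 in Bhlhe40LysM. The direct test depended on single arrays: it called 111 genes without Bhlhe40LysM replicate 2, 46 without KO replicate 1, 4 without Bhlhe40LysM replicate 1 and 1 without KO replicate 2. A direct test that calls few genes with 2 arrays a group does not show that the 2 kinds of loss act alike.

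Promoters were also read for CACGTG, the E-box that Bhlhe40 binds. Prok2, which encodes the secreted peptide prokineticin 2, was the 1 of the 14 largest rises, of the 10 with a promoter in the table, to hold it. It read 3.99 and 4.13 in WT and 6.86 and 5.40 in KO (2.07 ± 0.33, adjusted p = 0.0023), and 4.24 to 4.44 in naive WT and 5.26 to 5.84 in naive KO. Insig1, described above, is shown as a second gene that rose. The E-box is in capitals, in the 250 bases before the start (RefSeq, GRCm38.p6), 5′ to 3′ on the strand of the gene.
Prok2, chr6:99726393-99726642, minus strand: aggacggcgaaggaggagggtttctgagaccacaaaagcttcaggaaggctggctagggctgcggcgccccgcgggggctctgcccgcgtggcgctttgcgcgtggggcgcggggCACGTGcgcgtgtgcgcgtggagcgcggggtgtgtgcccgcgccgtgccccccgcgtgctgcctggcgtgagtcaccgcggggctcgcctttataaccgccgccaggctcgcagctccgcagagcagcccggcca
Insig1, chr5:28071162-28071411, plus strand: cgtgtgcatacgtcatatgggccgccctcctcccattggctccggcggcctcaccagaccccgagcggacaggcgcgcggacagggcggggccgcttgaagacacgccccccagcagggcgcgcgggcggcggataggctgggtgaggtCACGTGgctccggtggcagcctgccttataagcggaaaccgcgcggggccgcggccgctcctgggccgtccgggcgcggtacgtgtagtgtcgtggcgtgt
The E-box starts 135 bases before the Prok2 start and 101 before that of Insig1. From 250 bases before to 50 after the start it was in 33 of 191 promoters of genes that rose (17.3%), 10 of 135 of genes that fell (7.41%) and 1097 of 9327 of all tested genes (11.8%). Of the 32 genes that rose in both IL-4c and naive LPM, 26 had a promoter and 3 of these held it (11.5%). None of the 13 promoters found for the 14 largest falls held it, but that of Irs1, a smaller fall, did. These shares are descriptions, and absence says only that the letters are not in the window. Prok2, Pparg, Fancd2 and Camk1 lie within 10 Mb of Bhlhe40, where 5 of 65 tested genes were called, Bhlhe40 included (7.69%, against 3.63% of all tested genes). Whether variants linked to the targeted allele play a part was not tested.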

How the data were processed

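The values are log2 expression of 30177 probe sets on 16 arrays, as the authors deposited them. The submitters' processing notes name RMA, which corrects background, equalises the arrays' distributions by quantiles and summarises probes, so a genotype effect on RNA content would be removed. The labels do not say which arrays were normalized together. Values ran from 1.036 to 13.84, with no detection calls and no read counts.

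A single gene symbol belonged to 21789 probe sets, several to 1621 and none here to 6767; only those with 1 were used, with the brightest probe set of a gene. Cdkn1a had none and was not analysed here. Testing was limited to the 11634 of 19938 genes whose signal passed the median of the array on 2 or more of all 16 arrays. Group means over all 16 arrays were fitted with limma 3.58.1 under R 4.3.3 by lmFit and eBayes, with two-sided tests, 9 residual degrees of freedom and 6.61 prior ones; the median SD within groups was 0.171. The fit was tested on simulated data. The number of arrays limits the precision.

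The genes named are the 14 called genes with the largest rise and the 14 with the largest fall, if the arrays do not overlap, and without predicted or numbered symbols, up to 4 called members of a list in each direction, genes named whatever their values (Mki67, Ccnd1, Ccnd2, Cdkn1a, Id2, Bhlhe40, Bhlhe41, Gata6, Klf2, Klf4, Maf and Myc, with 1 item not reported here), and the 8 largest called interactions and KO against Bhlhe40LysM differences each way. Further members of lists, and of those called genes past the fourth, were named after their values were seen. Members and the 50 lists were chosen with earlier results of these data known; lists are described by counts and medians only. Promoters are those of RefSeq (GRCm38.p6, 250 bases before to 50 after the start), present for 9327 tested genes. Alternatives were a second quantile normalization, median centring, other filters on dim genes, probe sets averaged per gene, robust variances with a trend on intensity, fewer arrays, array weights, a replicate block and leaving out each array; an array left alone in its group is assumed to vary as the other groups do. Plots were made in matplotlib 3.10.9 (Python 3.11.15).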

Additional observations from a re-analysis of the deposited data

Results flagged for a closer look

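For 31 named genes the KO minus WT difference under IL-4c differed from that in naive LPM by a direct test, the interaction of the limma fit. Of receptors, secreted proteins and other surface or effector genes the difference of differences was 4.92 for Plac8, 2.64 for Tnxb, 2.45 for Hcar2, 2.24 for Hgf, 1.94 for Itga9, 1.92 for Csf3r, 1.78 for P2rx1, 1.31 for Cd93, 1.28 for Ptafr and 1.0 for C1qa. Of intracellular signalling and transcription genes it was 2.45 for Neurl3, 1.85 for Rassf2, 1.72 for Rnf144b, 1.48 for Rhob, 1.33 for Ier3, 1.30 for Jun, 1.09 for Cebpa, 1.07 for Klf9 and 0.96 for Bach1. Negative values were -4.20 for Ly6a2, -2.97 for Timd2, -2.72 for Mall, -2.19 for Parm1, -1.48 for Cd300lf, -1.43 for Arg1, -1.42 for Irs1 and -1.30 for Traf3ip3, and among cell cycle genes -1.42 for Ercc6l, -1.24 for Ccne1, -1.20 for E2f7 and -1.13 for Orc1. Of these 31 genes 20 lost the call without IL-4c WT replicate 2 and 12 without IL-4c KO replicate 1. Without any one of the 10 arrays the call held for 11, which are Plac8, Tnxb, Hgf, Csf3r, P2rx1, Neurl3, Rassf2, Ier3, Ly6a2, Timd2 and Parm1. Hcar2 was not called under IL-4c alone (1.15, adjusted p = 0.089) and fell in naive KO.

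KO differed from Bhlhe40LysM in the direct test for Pla2g7, by -1.22, a call lost without KO replicate 2, without Bhlhe40LysM replicate 1, with array weights, with the replicate block and with only the compared arrays. With pairs and trios of arrays no group was large enough for a check of single outlying arrays.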

How the results depend on the processing

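The 422 calls of KO against WT became 466 after a second quantile normalization and 317 with arrays centred on their medians, with 61.2% and 57.7% of calls higher against 58.5%. They were 352 without a filter on dim genes, 404 with the filter at the olfactory receptor level, 418 with the mean of probe sets, 499 with the trend and robust variance, 314 with only the LPM arrays and 333 with array weights, and 117 with only the compared arrays. Leaving out 1 array gave 84 (without WT replicate 2) to 418, with 49.7% of calls higher without WT replicate 1 and 76.2% without WT replicate 2. The 64 interaction calls became 109 with the trend and robust variance and 38 with only the LPM arrays, and ranged from 20 to 124 without 1 array. The 2 calls of KO against Bhlhe40LysM became 8 with the trend, 1 with array weights and 0 with only the compared arrays (limma; 570 at an unadjusted p under 0.05), and ranged from 1 to 111 without 1 array. The cause of these changes was not tested, apart from fewer arrays in the fit. Some of the named genes, such as Arg1, Myc and Mki67, were not called in KO against WT and so had no call to lose. Among the named genes, those that were called kept their direction under each alternative run. Some values near 0 changed sign in at least 1 run: the medians of 14 lists, such as alternative activation (0.077, and -0.003 without KO replicate 1) and LPM identity (0.064, and -0.025 without WT replicate 2), and the uncalled genes Klf2 (-0.02 without WT replicate 2), Klf4 (0.19 without it) and Arg1 (-0.03 without KO replicate 1). Of 129 named genes 68 lost the call with only the compared arrays, and leaving out WT replicate 2 or KO replicate 1 cost 83 and 69 their call.

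With the replicate number as a block, KO against WT gave 375 calls, the interaction 64 and KO against Bhlhe40LysM 1; 11 named genes lost their KO against WT call (Aldoc, Alox15, Blm, C1qc, Ctsc, Cxcl13, Fasn, Il6, Maf, Rarb and Rgs14). Same-numbered deviations correlated at 0.115 between WT and KO, 0.148 between WT and Bhlhe40LysM and 0.21 between KO and Bhlhe40LysM, with 2 pairs each. No label says that a number marks a shared mouse, litter or day.

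Signal over background limits genes near or under the array medians of 4.79 to 4.93, such as Plac8 and Prok2 in WT, whose differences an array understates.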

Other observations

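Some gene families that the lists above do not hold were described after their values were seen. Histone genes, most of whose RNA is made in S phase, gave 8 falls and 0 rises among 33 tested, with a median of -0.625 and 29 below 0, beside 1.5% of all tested genes that fell. The linker histone H1f5 read 9.59 and 9.96 in WT and 8.53 and 8.55 in KO (-1.23, limma adjusted p = 0.0068), and H4f16 fell by 1.18 and H1f1 by 1.05. Probes of histone genes can be shared by close copies. Of 8 genes of the CD300 family of paired immune receptors, 3 fell: Cd300lf by 1.72, Cd300lb by 0.89 and Cd300ld by 0.83, while Cd300c2 read 6.12 and 6.01 in WT and 7.01 and 6.87 in KO (0.87, limma adjusted p = 0.082). Of the 3 PILR receptor genes Pilra and Pilrb1 fell and Pilrb2 differed by -1.10 (limma adjusted p = 0.0535).

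Of 41 lysosomal genes 9 rose and 0 fell, with a median of 0.288 and 35 above 0, beside 2.12% of all tested genes that rose and 46.9% above 0. These counts depend on the members picked: the lysosomal protease Ctsc, which fell, is not among the 41. The protease Lgmn, which trims lysosomal proteins and antigens, read 10.01 and 9.63 in WT and 11.37 and 10.59 in KO (1.16, limma adjusted p = 0.0045). Cd63 rose by 1.29, the sulphatase Arsa by 1.21, Ppt1 by 0.72 and the sorting receptor Igf2r by 0.64. In naive LPM the median of these genes was -0.081. The calcium release channels Itpr3, Ryr2 and Itpr2 rose by 1.04, 0.93 and 0.52. Apart from Cd300lf and Itpr3, each of the genes called here lost its call without at least 1 of the 4 arrays.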
